A study of Mus musculus with 9 samples.

Results

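The report concerns 10 heat shock and chaperone genes, followed through every cell type of the postnatal day 24 mouse testis by single-cell RNA-seq. The genes were listed by symbol and all 10 were found among the 32285 genes counted: Hspa1a, Hspa1b, Hspa1l, Hspa2, Hspa4l, Hspa8, Hsph1, Dnajb1, Hsp90aa1 and Hsf2. Whole testes of 9 mice (4 Control, 2 NELF-B cKO, 3 TDP-43 cKO) were digested with enzymes, and 1 droplet library with 3′ counting was made per mouse. NELF-B is a subunit of the complex that holds RNA polymerase II paused near promoters, and TDP-43 (gene Tardbp) is an RNA-binding protein. A cKO mouse carried 1 floxed and 1 null allele of Nelfb or Tardbp and the Stra8-iCre transgene, which deletes the floxed allele in germ cells from the spermatogonial stage onwards, so somatic cells of a cKO mouse keep 1 working allele beside the null one. All mice are labelled C57BL/6, and the study's methods specify C57BL/6 J. The controls, littermates and non-littermates, are labelled only as controls. The study's text calls them WT, while the name deposited with the library of control 2 adds het with no allele given, so whether every control lacked these alleles was not known here. The question asked of these genes is how they change as germ cells mature, and whether they differ between the 3 genotypes.

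Heat shock proteins of the HSP70 family (Hspa genes) fold and refold other proteins, with J proteins such as DNAJB1 delivering the substrate and HSP110 proteins such as HSPH1 and HSPA4L exchanging the nucleotide. HSP90 proteins complete the folding of kinases and receptors, and heat shock factors bind heat shock elements in the promoters of these genes. Hspa1a and Hspa1b are the classical inducible genes, which many cells switch on under heat or other stress, and Hspa8 is their constitutive relative. Male germ cells use dedicated relatives: HSPA2 is needed for spermatocytes to complete meiosis, HSPA1L is found in spermatids, and HSF2 is abundant in the testis.

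Hspa1a, Hspa1b and Hspa1l lie together on chromosome 17 of GRCm38. Hspa1b (chr17:34956436-34959238, minus strand) and Hspa1a (chr17:34969190-34972156, minus strand) are genes of 1 exon each, separated by 9951 bases. Hspa1l (chr17:34972703-34979285, plus strand) starts 547 bases from the start of Hspa1a on the opposite strand. The other members are Hspa2 (chr12:76404176-76406938), Hspa4l (chr3:40744495-40796103), Hspa8 (chr9:40800984-40810087), Hsph1 (chr5:149614287-149636376), Dnajb1 (chr8:83608193-83612653), Hsp90aa1 (chr12:110690605-110702728) and Hsf2 (chr10:57486385-57513135). Promoter windows of RefSeq on GRCm38, from 250 bases before to 50 bases after a gene's start, were at hand for 8 of the 10 members, all but Hspa8 and Hsp90aa1. These windows were searched on both strands for the heat shock element, in a form with 2 units (GAANNTTC or TTCNNGAA) and a form with 3 units (GAANNTTCNNGAA or TTCNNGAANNTTC), which contains the first. The matches are shown because this element is the one that heat shock factors read, and the capitals mark the matched letters.
Hspa1a, chr17:34972242-34972271, minus strand: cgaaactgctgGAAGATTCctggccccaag
Hspa1b, chr17:34959324-34959353, minus strand: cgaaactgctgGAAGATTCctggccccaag
Hsph1, chr5:149636351-149636380, minus strand: gggtagaatctTTCTCGAAggctcgagaag
Hsph1, chr5:149636280-149636308, minus strand: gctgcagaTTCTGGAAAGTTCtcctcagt
A match was present in 3 of the 8 members with a window, Hspa1a, Hspa1b and Hsph1, and 1 of them, Hsph1, held the form with 3 units. Of all 32851 windows, 15.1% held the form with 2 units and 0.603% the form with 3. In Hspa1a and Hspa1b the match was centred 100 bases before the start, and their windows differed at 4 of 300 positions. No match in the windows of Hspa2, Hspa1l, Hspa4l, Dnajb1 and Hsf2 says only that these letters are not in these windows.

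The near identity of Hspa1a and Hspa1b limits how their reads can be told apart. Of the 2918 stretches of 50 bases in the Hspa1a transcript, 58.8% occur also in that of Hspa1b, but 0 of the 451 stretches in its last 500 bases do. With 3′ counting most reads should fall in the distinct end, and reads from elsewhere in the transcript are uncertain between the genes.

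Values are counts of unique molecular identifiers (UMIs) summed over the cells of a type in a mouse and given as counts per 1000000 UMIs of that sum (CPM). The libraries held 119203347 to 159407373 UMIs, and 27861 cells were assigned to spermatogonia (SG), early spermatocytes (early SC, which join preleptotene, leptotene and zygotene), pachytene (P) and diplotene (D) spermatocytes, round spermatids (RS) or somatic types, each named from at least 3 of its fixed markers. Before any cell was left out, Nelfb in SG was at 65.8 to 78.1 CPM in the controls and at 4.91 and 5.31 CPM in the NELF-B cKO mice, and Tardbp in SG was at 67.8 to 90.4 CPM in the controls and at 31.2, 35.7 and 37.1 CPM in the TDP-43 cKO mice. Cells of the cKO mice in which a Nelfb or Tardbp UMI, respectively, was still found were left out of SG and early SC; over all germ cells 3345 held such a UMI, 3112 of them for Tardbp. The NELF-B cKO libraries did not fall together: NELF-B cKO 1 lay with the controls and NELF-B cKO 2 with the TDP-43 cKO mice. In NELF-B cKO 2 and the 3 TDP-43 cKO mice 56.7% to 62.2% of the SG kept lay in a cluster that held at most 3.50% of SG in the controls and in NELF-B cKO 1. All TDP-43 cKO mice and no control lay on that side. In TDP-43 cKO against control this split of the libraries and the genotype therefore cannot be told apart. TDP-43 cKO 1 yielded 7 P, 2 D and 3 RS cells and NELF-B cKO 2 yielded 2 D and 11 RS cells, and sums of fewer than 20 cells were not used. In all, 260 of 44872 barcodes occurred in more than 1 library.

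Control mice were compared between successive stages first, to see where each chaperone is expressed in the normal germ line. In these comparisons a gene was called at an adjusted p under 0.05, over 19316 genes and with the mouse as a block. CPM are scaled to the UMI total of a sum and the log2 values to TMM, so a log2 value need not equal the ratio of the CPM beside it. The log2 values printed from early SC to P lie above that ratio. Most genes changed at each step. From SG to early SC 5 members rose and 3 fell, beside 26.2% of all genes called higher and 32.9% called lower (59.1% in all). From early SC to P 4 rose and 3 fell, beside 30.5% and 42.1% (72.6% in all). From P to D 2 rose and 3 fell, beside 26.4% and 32.6% (59.0% in all), and from D to RS 4 rose and 3 fell, beside 35.1% and 29.1% (64.2% in all). The counts of members were thus near the background at most steps and above it for rises from SG to early SC, a difference that was not tested. What sets the members apart from each other is the direction and the size of each step.

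Hspa2, the meiotic HSP70, rose in 2 steps to a plateau. In SG it was at 215, 97.6, 144 and 109 CPM in control mice 1 to 4, in early SC at 614, 678, 457 and 538 CPM, and in P at 1471, 1464, 1384 and 1426 CPM. The 3 stages did not overlap. It was 2.12 ± 0.20 (log2, SE) higher in early SC than in SG (adjusted p = 3.49e-09) and 1.67 ± 0.19 higher in P than in early SC (adjusted p = 4.64e-08). P and D differed by 0.03 ± 0.19 (adjusted p = 0.920), at 1436 ± 40.3 and 1426 ± 91.1 CPM (SD, n = 4). RS, at 705 to 1003 CPM, were 0.87 ± 0.19 lower on the log2 scale than D (adjusted p = 0.000334). The genes whose levels followed Hspa2 most closely over 40 sums of mouse and cell type, among 8703 genes, were Iqcg, Rsph1 and Syngr4, with Pearson's r of 0.982, 0.979 and 0.977.

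Hspa1l, the spermatid HSP70, was low everywhere and highest in RS. Its RS sums were 25.3, 6.66, 36.4 and 23.9 CPM in controls 1 to 4, from 162, 53, 286 and 412 UMIs. In P it was at 2.20 to 2.69 CPM and in D at 2.54 to 7.17 CPM. Control 2 was far below the other controls in RS and lay inside the range of D. The rise from D to RS was 2.10 ± 0.41 on the log2 scale (adjusted p = 9.33e-05). With every cell thinned to 2000 UMIs, a UMI of Hspa1l was found in 5.80%, 2.80%, 5.68% and 5.63% of RS. The same share was 0% to 0.967% in P, and 0%, 0%, 2.00% and 0% in Leydig cells, which serve as a somatic background. In immune cells, another somatic background, it was 1.30%, 1.37%, 5.00% and 1.52%, at 5.49 to 13.3 CPM from 3 or 4 UMIs a mouse, so RS of control 2 did not stand above the background. Early SC varied widely between control mice, from 0.507 to 7.71 CPM, on 3 to 34 UMIs. The genes closest to Hspa1l in pattern were Cypt1 (r = 0.764), Bcl2l14 (r = 0.750) and 2610318N02Rik (r = 0.748), a looser likeness than for Hspa2.

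Both HSP110 members rose on entry into meiosis, and only Hspa4l went on to a plateau. Hspa4l was at 160, 136, 142 and 130.02 CPM in SG of controls 1 to 4, and at 375, 406, 360.0 and 398 CPM in early SC. Every early SC sum lay above every SG sum. The rise was 1.52 ± 0.11 (log2, SE; adjusted p = 4.32e-11), followed by 0.91 ± 0.11 from early SC to P (adjusted p = 5.06e-08). P, D and RS lay at 575 ± 43.0, 529 ± 25.2 and 603 ± 55.1 CPM (SD, n = 4), and neither the step from P to D (adjusted p = 0.515) nor that from D to RS (adjusted p = 0.420) was called. Hsph1 was at 45.0 ± 5.06 CPM in SG and 57.4 ± 9.56 CPM in early SC (0.44 ± 0.16 higher, log2, adjusted p = 0.0174). It was 0.46 ± 0.15 lower in P than in early SC (adjusted p = 0.00968) and 0.98 ± 0.17 lower in D than in P (adjusted p = 2.64e-05).

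Hspa8, the constitutive HSP70, ran opposite to Hspa2. It was at 1082, 1057, 1175 and 1259 CPM in SG of controls 1 to 4, 725, 657, 719 and 853 CPM in early SC, 170, 116, 162 and 212 CPM in P, and 49.6, 56.8, 53.3 and 57.7 CPM in D. No stage overlapped the next. It fell by 0.55 ± 0.10 from SG to early SC (log2, adjusted p = 6.07e-05), by 1.84 ± 0.11 to P (adjusted p = 2.46e-13) and by 1.54 ± 0.11 to D (adjusted p = 3.50e-11). RS, at 72.8 to 80.04 CPM, were 0.39 ± 0.11 above D (adjusted p = 0.00314). Hspa8 thus fell from 1143 ± 92.4 CPM in SG to 54.4 ± 3.72 CPM in D over the stages in which Hspa2 rose from 141 ± 52.8 to 1426 ± 91.1 CPM.

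Dnajb1, a J protein partner of HSP70, rose at each step up to D. It was at 75.2 ± 21.2 CPM in SG, 150.0 ± 26.0 in early SC, 317 ± 18.8 in P and 662 ± 62.2 in D (SD, n = 4), and no 2 successive stages overlapped. The rises were 1.09 ± 0.15 (log2, SE; adjusted p = 1.00e-06), 1.44 ± 0.15 (adjusted p = 5.10e-09) and 1.08 ± 0.14 (adjusted p = 6.44e-07). It was then 0.80 ± 0.14 lower in RS on the log2 scale (adjusted p = 3.37e-05). Hsp90aa1, an HSP90, reached its highest level earlier. It was at 2163 ± 118 CPM in SG, 4621 ± 330 in early SC, 5104 ± 299 in P, 3341 ± 79.1 in D and 2169 ± 147 in RS, and early SC and P overlapped. Its rise into early SC was 1.18 ± 0.11 (adjusted p = 5.25e-09), and from P it fell by 0.58 ± 0.11 into D (adjusted p = 0.000107) and by 0.71 ± 0.11 into RS (adjusted p = 7.24e-06).

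Hsf2, the only heat shock factor among the members, was lowest in P. It was at 48.4, 64.9, 51.9 and 45.8 CPM in SG of controls 1 to 4 and at 7.48, 8.53, 7.78 and 7.70 CPM in P. In RS it was back at 57.6, 86.7, 63.4 and 55.8 CPM. SG and RS overlapped, and every P sum was below every other germ stage. From early SC to P it fell by 2.13 ± 0.12 on the log2 scale (adjusted p = 1.04e-13), and it then rose by 1.31 ± 0.12 into D (adjusted p = 3.15e-09) and by 1.69 ± 0.12 into RS (adjusted p = 1.93e-11).

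The inducible members Hspa1a and Hspa1b were nearly absent from spermatocytes. Hspa1a was at 10.99, 9.92, 13.4 and 12.3 CPM in SG of controls 1 to 4 and at 1.16, 2.03, 1.59 and 2.45 CPM in early SC. Hspa1b was at 5.36, 9.12, 5.15 and 6.98 CPM in SG and at 0.771, 1.35, 0.794 and 1.73 CPM in early SC, where it rested on 2 to 12 UMIs a mouse. SG lay above early SC in every mouse for both genes. They fell by 2.60 ± 0.41 (adjusted p = 7.47e-06) and by 2.40 ± 0.43 (adjusted p = 3.82e-05) on the log2 scale. In P, Hspa1a was at 0.410 to 2.496 CPM and Hspa1b at 0.308 to 0.686 CPM, and neither step from early SC to P was called (adjusted p = 0.191 and 0.0502). Hspa1a was higher in RS than in D (1.52 ± 0.54, adjusted p = 0.0169), at 0.503 to 4.37 CPM with overlap between the stages. SG, the germ stage with the most Hspa1a, lay below every somatic sum in the controls: Sertoli cells were at 14.6 to 29.1 CPM (difference not called, adjusted p = 0.162), Leydig cells at 21.7 to 607 CPM and interstitial cells at 99.2 to 720 CPM.

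**Figure D1:**
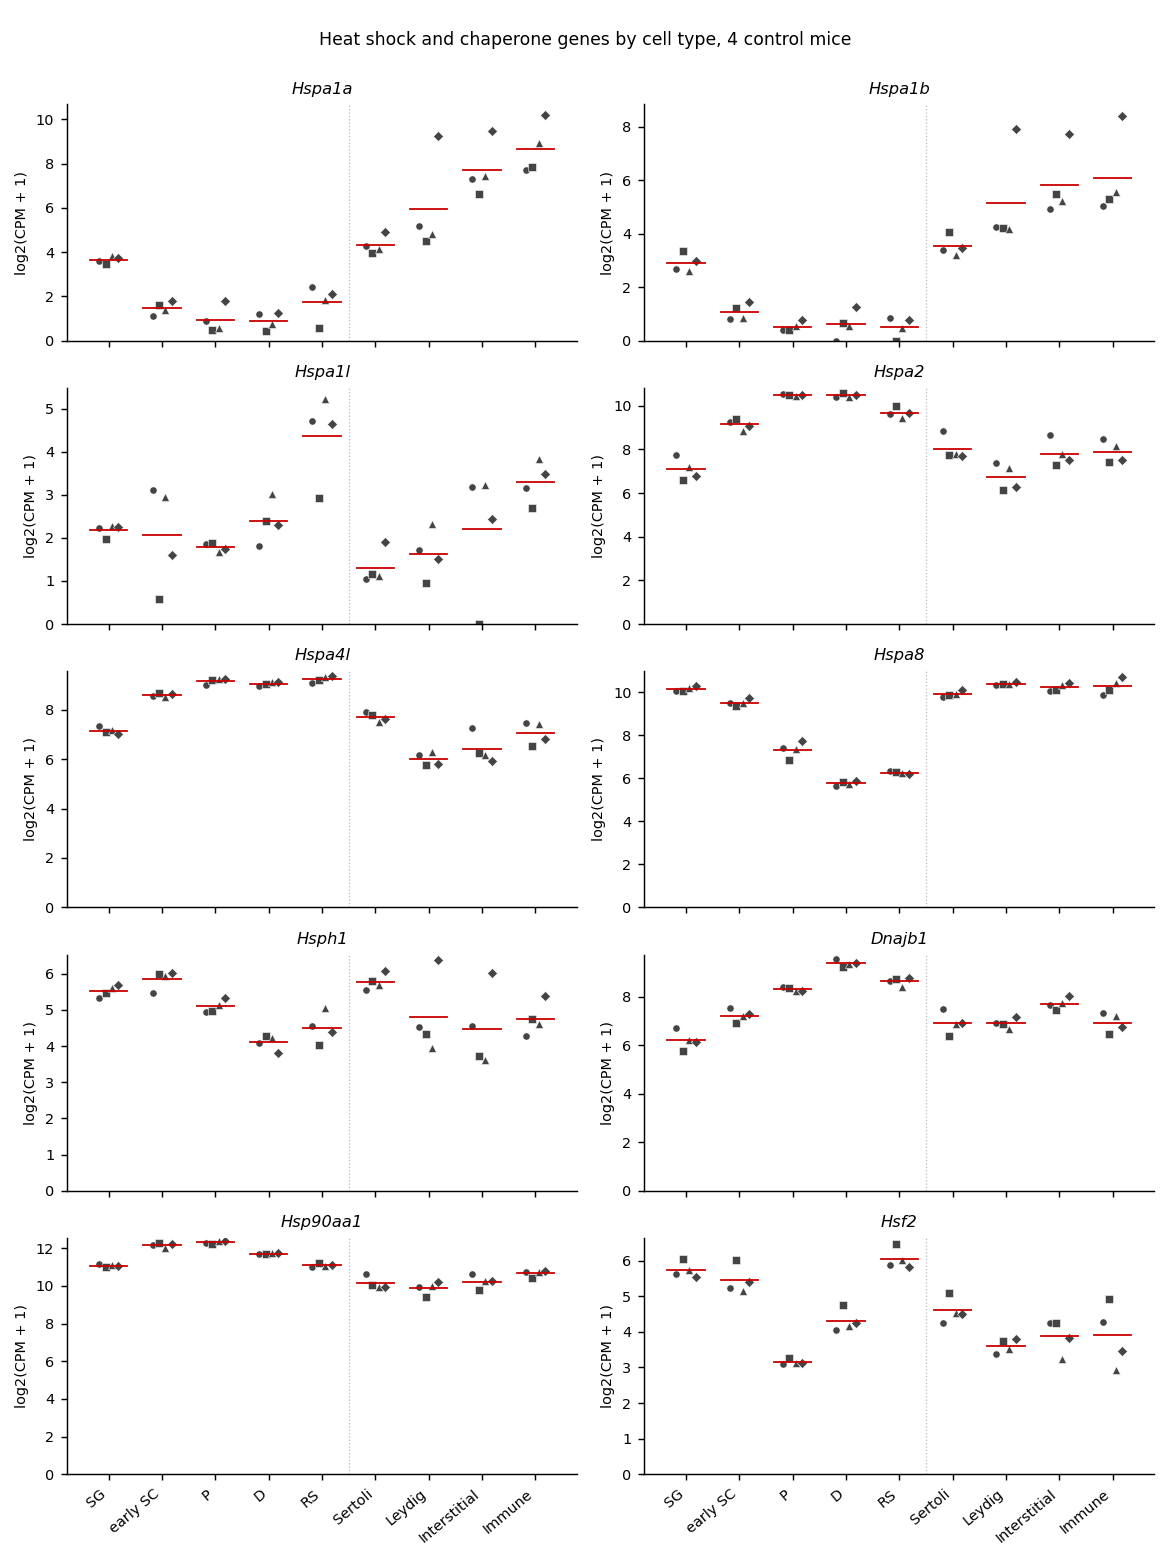
Level of the 10 genes as log2(CPM + 1) in 5 germ stages (left of the dotted line) and 4 somatic cell types of the 4 control mice, 1 point per mouse (marker shape) with the mean of the 4 as a red line. Hspa2, Hspa4l and Dnajb1 climb to P or D, Hspa8 drops from 1057 to 1259 CPM in SG to 49.6 to 57.7 CPM in D, Hsf2 dips to 7.48 to 8.53 CPM in P, and Hspa1a and Hspa1b have their highest means in immune and interstitial cells.

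Free RNA in the droplets bears on the low germ and somatic levels of the abundant spermatocyte genes. Hspa2 was at 922 to 995 CPM in barcodes of 1 to 100 UMIs of the control libraries, and at 817 and 231 CPM in NELF-B cKO and 64.8, 474 and 356 CPM in TDP-43 cKO libraries. Estimated from genes of round spermatids, free RNA was 5.68% to 9.96% of UMIs in control SG and made up 46.1%, 67.0%, 53.0% and 48.0% of the Hspa2 counts there. Subtracting it left 116, 32.2, 67.7 and 56.9 CPM in SG and 467, 554, 333 and 458 CPM in early SC, and the rise between them was 2.75 (log2, adjusted p = 0.000233). Round spermatid genes gave the estimate for SG and early SC only, and somatic genes gave it for P, D and RS. The rises of Hspa4l (1.51) and Hsp90aa1 (1.06) from SG to early SC were also called after subtraction. So were those of Hspa2 (1.81), Hspa4l (0.90) and Dnajb1 (1.78) from early SC to P, which join both estimates. The calls from SG to early SC ended for Dnajb1 (1.14, adjusted p = 0.0829), Hspa8 (-0.75, adjusted p = 0.292) and Hsph1 (0.28, adjusted p = 0.285). Those from D to RS, where free RNA was subtracted by somatic genes, ended for Hspa2 (-0.76, adjusted p = 0.194), Dnajb1 (-0.66, adjusted p = 0.290), Hspa8 (0.42, adjusted p = 0.583) and Hspa1a (3.73, adjusted p = 0.0781). Calls were gained for Hsf2 from SG to early SC (-0.41, adjusted p = 0.0201), for Hspa1a and Hspa1b from early SC to P (-5.37 and -4.26, on few UMIs), and for Hspa4l (0.38) and Hsph1 (0.64) from D to RS.

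**Figure D2:**
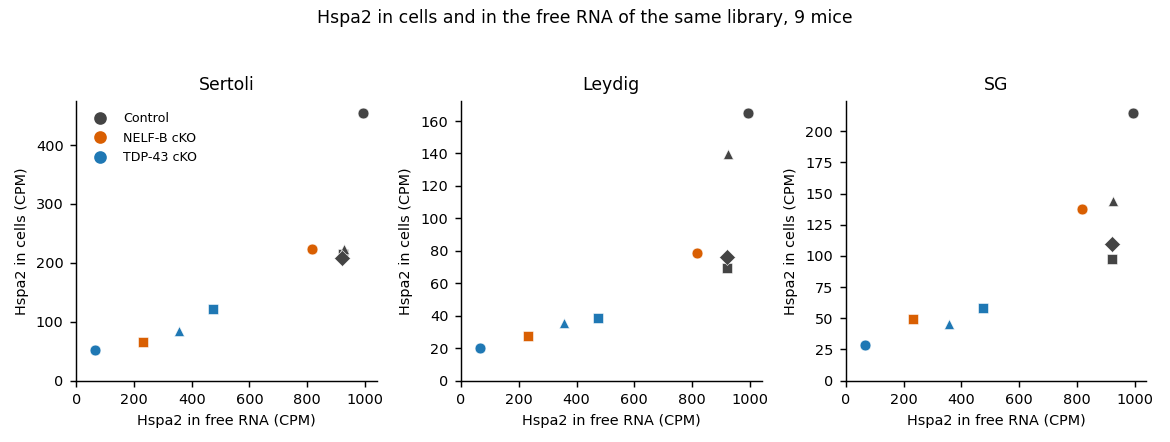
Hspa2 CPM in barcodes of 1 to 100 UMIs of each library (horizontal) against Hspa2 CPM in Sertoli cells, Leydig cells and SG of the same library (vertical), 1 point per mouse with marker shapes for the mouse number. TDP-43 cKO 1 is lowest on both axes in each panel, at 64.8 CPM in free RNA and 28.5 CPM in SG, and control 1 is highest, at 995 and 215 CPM.

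Sertoli cells, the somatic nurse cells of the tubule, were compared with SG in the same control mice, where 3 of the 10 members were higher and 3 lower, beside 24.2% of all genes called higher and 38.9% called lower (63.1% in all). Hsp90aa1 (-1.04 ± 0.11, log2, adjusted p = 3.06e-08), Hsf2 (-1.25 ± 0.13, adjusted p = 8.97e-09) and Hspa8 (-0.35 ± 0.10, adjusted p = 0.00532) were lower in Sertoli cells. Hspa2 (0.81 ± 0.20, adjusted p = 0.000990), Hspa4l (0.43 ± 0.11, adjusted p = 0.00177) and Dnajb1 (0.59 ± 0.15, adjusted p = 0.00186) were higher. Free RNA was then subtracted by round spermatid genes in SG and by genes of late germ cells in Sertoli cells. These 3 calls and that of Hspa8 (-0.51, adjusted p = 0.462) ended, and the values for Hspa2 and Dnajb1 turned to -0.16 (adjusted p = 0.810) and -0.54 (adjusted p = 0.426). Among somatic cells of the controls, Hspa8 was at 972 ± 94.3 CPM in Sertoli cells and at 1361 ± 64.7 CPM in Leydig cells, and the Leydig and SG ranges did not overlap.

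Other chaperone genes, in lists chosen with earlier results of these data known, moved with the germ cell stages in different ways. Their counts stand beside 26.2% of all genes called higher and 32.9% lower from SG to early SC, 30.5% and 42.1% from early SC to P, and 35.1% and 29.1% from D to RS. Of 11 testis chaperones and HSPA2 partners, 5 rose from SG to early SC and 0 fell (median 0.67, all genes -0.04), among them Clgn (1.51 ± 0.18), the calmegin of the spermatocyte endoplasmic reticulum, and Cct6b (0.84 ± 0.22). From early SC to P, 7 rose and 4 fell (median 2.14, all genes -0.40), with Cct6b at 3.11 and Dnajb3 at 3.08, and Calr3 at -2.94. In RS against D, 5 rose, led by Dnajb8 (6.38) and Calr3 (5.91), and 5 fell. The TRiC chaperonin, which folds actin and tubulin, had 5 of 8 subunits higher in P than in early SC and 7 of 8 lower in RS than in D. Of 14 mitochondrial and endoplasmic reticulum chaperones, 11 rose and 2 fell from SG to early SC (median 1.07), led by Hspa5 (2.61 ± 0.13), the HSP70 of the endoplasmic reticulum. From early SC to P, 10 of the 14 fell, led by Hspd1 (-3.49 ± 0.12), the mitochondrial HSP60, and 3 rose. Among 25 other cytosolic chaperones 10 rose and 10 fell from SG to early SC, with the HSP90 cochaperone Chordc1 at 1.61 ± 0.15 and Hsp90ab1 at -1.33 ± 0.09, opposite to its paralogue Hsp90aa1. Bag3, a cochaperone of HSP70, was 3.24 ± 0.22 higher in P than in early SC.

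The genotypes were compared next, first in SG and early SC together, the cells in which the deletion acts and which every mouse supplied. None of the 10 members was called by edgeR in NELF-B cKO against control (3 at an unadjusted p under 0.05), nor in TDP-43 cKO against control (4 at an unadjusted p under 0.05). The shares of all 19551 genes called were 0.0307% and 0.179%. These are shares at the adjusted threshold. The share of all genes at an unadjusted p under 0.05 was not counted, here or below. Counts of members at that threshold thus have no background and do not set the members apart from other genes. DESeq2 called 1 member in the first comparison and 4 in the second, where it called 8.21% and 16.2% of all genes. In TDP-43 cKO against NELF-B cKO 0 members were called (2 at an unadjusted p under 0.05), with 0.123% of all genes.

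Hspa4l was the member that stood apart most clearly. In SG and early SC together it was at 216, 223, 206 and 241 CPM in controls 1 to 4, at 181 and 129 CPM in NELF-B cKO 1 and 2, and at 98.0, 133 and 136 CPM in TDP-43 cKO 1 to 3. Every cKO mouse lay below every control mouse. The difference was -0.81 ± 0.13 in TDP-43 cKO (log2, SE; adjusted p = 0.0509) and -0.55 ± 0.15 in NELF-B cKO (adjusted p = 0.148). Over 25 alternative settings these values ran from -0.87 to -0.39 (adjusted p 1.12e-05 to 0.318, 7 called) and from -0.80 to -0.09 (adjusted p 0.0205 to 0.717, 3 called). Fitted with the control and TDP-43 cKO mice alone, which leaves NELF-B cKO 1 and 2 out of the estimate of spread, the TDP-43 difference was called (-0.81, adjusted p = 0.00982), beside 17.8% of all genes in that fit.

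Hspa2, Dnajb1 and Hspa8 came close to the threshold in TDP-43 cKO. Hspa2 was at 320, 284, 236 and 288 CPM in controls 1 to 4, at 190 and 99.6 CPM in NELF-B cKO and at 56.8, 152 and 158 CPM in TDP-43 cKO. The cKO and control mice did not overlap, and TDP-43 cKO 1 was lowest. The differences were -1.17 ± 0.33 in TDP-43 cKO (adjusted p = 0.0705) and -0.99 ± 0.38 in NELF-B cKO (adjusted p = 0.244). Dnajb1 was at 125, 74.7, 95.4 and 104 CPM in the controls, 107 and 76.1 CPM in NELF-B cKO and 53.2, 59.1 and 59.1 CPM in TDP-43 cKO (-0.75 ± 0.18, adjusted p = 0.0618). The NELF-B cKO mice lay inside the control range. Hspa8 was at 929 to 1090.3 CPM in the controls, 929 and 1181 CPM in NELF-B cKO and 1433, 1253 and 1129 CPM in TDP-43 cKO (0.38 ± 0.13, adjusted p = 0.0922). With the control and TDP-43 cKO mice alone, Hspa2 (-1.16, adjusted p = 0.0297), Dnajb1 (-0.75, adjusted p = 0.0180) and Hspa8 (0.39, adjusted p = 0.0415) were called too. Over the 25 alternatives the value for Hspa2 ran from -1.69 to 0.20 (adjusted p 0.0266 to 0.875), that for Dnajb1 from -0.88 to 2.26 (adjusted p 0.00193 to 0.318) and that for Hspa8 from 0.22 to 0.48 (adjusted p 0.0215 to 0.372). In all, 4 members did not overlap between control and NELF-B cKO and 4 between control and TDP-43 cKO, beside 25.8% and 32.4% of all genes.

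**Figure D3:**
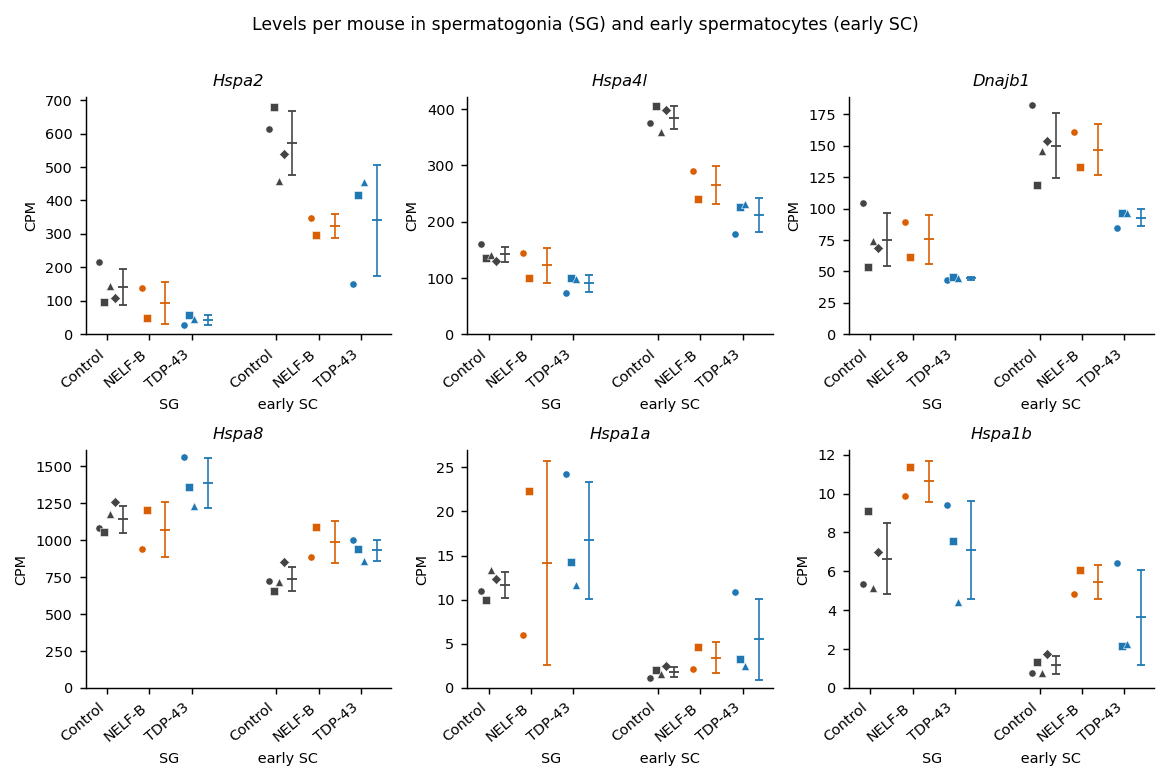
CPM of 6 members in SG and early SC by genotype, 1 point per mouse with the group mean ± SD beside it. In early SC Hspa4l is at 360.0 to 406 CPM in the 4 controls, 241 and 290 CPM in NELF-B cKO and 178 to 232 CPM in TDP-43 cKO, with no overlap with the controls.

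The sums of SG and early SC mix stages that differ in these genes, and the mix differed between mice, with overlap between the genotypes. Early SC were 33.8%, 42.5%, 43.8% and 56.4% of these cells in controls 1 to 4, 34.1% and 31.1% in NELF-B cKO and 31.4%, 38.6% and 39.9% in TDP-43 cKO. Each stage was therefore also tested alone. In SG, 0 members were called by edgeR in either cKO, with 0.00538% (NELF-B) and 0.0108% (TDP-43) of all genes called. At an unadjusted p under 0.05 there were 0 and 4, and DESeq2 called 0 and 4, beside 2.61% and 10.1% of all genes. The 4 in TDP-43 cKO included Hspa2 (-1.62 ± 0.42, adjusted p = 0.109), at 97.6 to 215 CPM in the controls and 28.5 to 58.3 CPM in TDP-43 cKO, and Hspa4l (-0.57 ± 0.15, adjusted p = 0.109), at 130.02 to 160 CPM and 73.6 to 100.1 CPM. NELF-B cKO 1, with 138 CPM of Hspa2 and 145 CPM of Hspa4l in SG, lay within the control range for both genes, and NELF-B cKO 2, with 49.5 and 100.2 CPM, lay below it. Free RNA, estimated by round spermatid genes over all SG cells, made up 46.1% to 67.0% of Hspa2 there in the controls, 61.4% and 106% in NELF-B cKO 1 and 2, and 80.4%, 83.5% and 89.9% in TDP-43 cKO 1 to 3. Subtracting free RNA by somatic genes left 0 UMIs of Hspa2 in SG of every control and turned the difference to 11.56 in NELF-B and 10.30 in TDP-43 cKO, values that are no bound.

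In early SC, Hspa4l and Dnajb1 were lower in TDP-43 cKO than in control, 2 of 10 members beside 14.3% of all genes called and 8.08% called lower. Hspa4l was at 375, 406, 360.0 and 398 CPM in controls 1 to 4, 290 and 241 CPM in NELF-B cKO and 178, 226 and 232 CPM in TDP-43 cKO. Neither cKO group overlapped the controls. The difference was -0.80 ± 0.12 in TDP-43 cKO (log2, SE; adjusted p = 0.00927) and -0.57 ± 0.14 in NELF-B cKO (adjusted p = 0.0544). The TDP-43 difference was called without any 1 of the 9 mice (adjusted p 0.00441 to 0.0475) and in 18 of 21 alternatives (adjusted p 1.77e-08 to 0.109). It was smaller and not called where control cells holding Tardbp UMIs were left out too (-0.43, adjusted p = 0.109), and -0.61 (adjusted p = 0.0369) where no cell was left out of any mouse. Without control 4 and TDP-43 cKO 1 together it was -0.68 (adjusted p = 0.0589). Dnajb1 was at 182, 119, 146 and 153 CPM in the controls and 84.9, 96.7 and 96.3 CPM in TDP-43 cKO (-0.63 ± 0.15, adjusted p = 0.0294). Its call ended without each of 6 mice in turn (controls 1, 3 and 4 and all 3 TDP-43 cKO mice, adjusted p up to 0.0776). Dnajb1 was called in 11 of 21 alternatives (adjusted p 0.00201 to 0.253), 1 of them in the opposite direction (0.72, adjusted p = 0.0277), with free RNA subtracted by somatic genes.

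None of the members was called by edgeR in early SC of NELF-B cKO against control, beside 2.56% of all genes, and 4 had an unadjusted p under 0.05. DESeq2 called 1, beside 14.5% of all genes, and the fit of NELF-B cKO and control mice alone called 3, beside 4.78%. Hspa1b was at 0.771 to 1.73 CPM in the controls and 4.84 and 6.06 CPM in NELF-B cKO 1 and 2, on 22 UMIs in each (2.10 ± 0.55, adjusted p = 0.0627). In the TDP-43 cKO mice it was at 6.43, 2.17 and 2.27 CPM, on 19, 8 and 10 UMIs (1.58 ± 0.52, adjusted p = 0.0643). In the cells kept, all 5 cKO mice lay above the controls. Summed over all its early SC, TDP-43 cKO 2 was at 1.48 CPM, inside the control range. The highest cKO sums of the cells kept were near the level of control SG, 5.15 to 9.12 CPM. Hspa1b in barcodes of 1 to 100 UMIs was at 2.51 to 8.35 CPM in the controls. It was at 5.27 and 20.3 CPM in NELF-B cKO 1 and 2 and at 66.2, 13.5 and 12.8 CPM in TDP-43 cKO. NELF-B cKO 1 thus lay inside the control range in free RNA, and the other cKO mice lay above it. Subtracting free RNA by somatic genes left 0 CPM of Hspa1b in early SC of every control, 4.52 and 3.85 CPM in NELF-B cKO and 2.74, 0 and 0.463 CPM in TDP-43 cKO. By round spermatid genes, and before cells were left out, free RNA was 8.71% to 14.7% of early SC UMIs in the controls. It was 14.2% and 49.65% in NELF-B cKO 1 and 2, and 100% (the cap), 42.1% and 59.7% in TDP-43 cKO 1 to 3. The Hspa1b expected from it was 15.8% of the count in NELF-B cKO 1. It exceeded the count itself in NELF-B cKO 2 and in all 3 TDP-43 cKO mice. In TDP-43 cKO 1 it was 66.2 CPM against 6.35 CPM counted, which cannot occur, so this estimate does not decide the Hspa1b difference. Over the alternatives the adjusted p for Hspa1b ran from 0.0211 to 0.283 in NELF-B cKO (4 of 20 called) and from 0.0640 to 0.293 in TDP-43 cKO (0 of 19 called). Hspa8 was at 657 to 853 CPM in the controls, 890 and 1092 CPM in NELF-B cKO and 1000.5, 941 and 859 CPM in TDP-43 cKO. The differences were 0.39 and 0.40 (adjusted p = 0.133 and 0.0557), again with no overlap in the cells kept. Summed over all its early SC, TDP-43 cKO 3 was at 848 CPM of Hspa8, inside the control range. Before cells were left out, subtracting free RNA by round spermatid genes left 614 to 818 CPM of Hspa8 in early SC of the controls. It left 833 and 394.5 CPM in NELF-B cKO and -470.4, 537 and 269 CPM in TDP-43 cKO, so 4 of the 5 cKO mice then lay below every control. These 4 are the mice with an estimated free RNA share of 42.1% or more, and a level below 0 cannot occur. The estimate thus does not decide the Hspa8 difference. Subtraction by somatic genes left Hspa8 differences of 0.20 and 0.13 (adjusted p = 0.367 and 0.489). In the early SC kept, 5 members did not overlap between control and NELF-B cKO and 7 between control and TDP-43 cKO, beside 33.6% and 33.7% of all genes. These counts depend on the removal, which took cells out of the cKO mice only. It cut early SC from 385, 758 and 866 cells to 180, 387 and 410 in TDP-43 cKO 1 to 3. Over all early SC, TDP-43 cKO and control overlapped for Hspa1a, Hspa1b, Hspa2, Hspa8 and Hsf2, but not for Hspa4l and Dnajb1. Hspa2 was then at 498 and 565 CPM in TDP-43 cKO 2 and 3 and at 457 to 678 CPM in the controls. NELF-B cKO and control then overlapped for Hsp90aa1.

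The makeup of early SC moved with these differences. The cluster nearest to preleptotene and leptotene held 24.2% to 36.5% of early SC in the controls and, of the cells kept, 68.3% and 44.4% in NELF-B cKO and 82.2%, 45.7% and 49.0% in TDP-43 cKO. Before cells were left out, the summed level of the 6 SG markers in early SC was 68.7 to 114 CPM in the controls, 216 and 145 CPM in NELF-B cKO and 220, 146 and 121 CPM in TDP-43 cKO, with no marker at 0. Within the cluster nearest to zygotene alone, Hspa4l was at 399 to 442 CPM in the controls, 292 and 241 CPM in NELF-B cKO and 183, 251 and 246 CPM in TDP-43 cKO. It was lower in NELF-B cKO (-0.74 ± 0.15, adjusted p = 0.0205) and in TDP-43 cKO (-0.79 ± 0.13, adjusted p = 0.00363), where 1.85% and 6.22% of all genes were called lower. Within the cluster nearest to preleptotene and leptotene it was not called, at -0.12 ± 0.11 in NELF-B cKO (adjusted p = 0.576) and -0.54 ± 0.10 in TDP-43 cKO (adjusted p = 0.0571), where 0.0511% of all genes were called in TDP-43 cKO and no member was. Hspa2 in the zygotene cluster was at 595 to 830 CPM in the controls and 478, 685 and 740 CPM in TDP-43 cKO (-0.06 ± 0.18, adjusted p = 0.875), and the groups overlapped. In the preleptotene and leptotene cluster the Hspa2 difference was -1.36 ± 0.28 in TDP-43 cKO (adjusted p = 0.0571). Within the preleptotene and leptotene cluster, Hspa8 (0.92 ± 0.16, adjusted p = 0.0235) and Hsp90aa1 (0.67 ± 0.11, adjusted p = 0.0162) were higher in NELF-B cKO than in control, with 1.61% of all genes called higher. Hspa8 there was at 613 to 800 CPM in the controls and 1102 and 1567 CPM in NELF-B cKO 1 and 2. Within the zygotene cluster both genes were on the other side of 0 in NELF-B cKO and not called, Hspa8 at -0.47 ± 0.18 (adjusted p = 0.144) and Hsp90aa1 at -0.44 ± 0.14 (adjusted p = 0.0983).

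**Figure D4:**
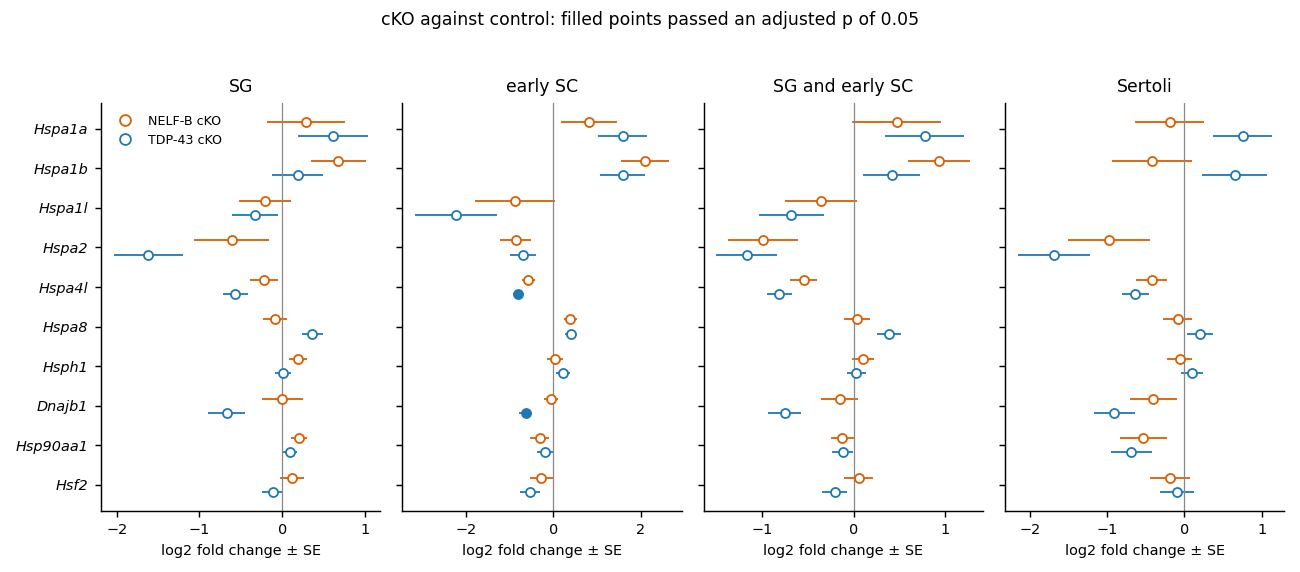
Log2 fold change of each member tested against control (bars are SE) in SG, early SC, SG and early SC together, and Sertoli cells, for NELF-B cKO (orange) and TDP-43 cKO (blue), with filled points for an adjusted p under 0.05. The filled points are Hspa4l (-0.80) and Dnajb1 (-0.63) in early SC of TDP-43 cKO, and Hspa4l lies below 0 in every panel.

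Other chaperones of the lists fell with Hspa4l in early SC of TDP-43 cKO. Of 11 testis chaperones and HSPA2 partners 8 were lower and 0 higher (median -1.67, all genes 0.02), beside 8.08% of all genes called lower, led by Dnajc5b (-3.65 ± 1.03, adjusted p = 0.0416), Pdilt (-3.64 ± 0.95, adjusted p = 0.0357), Dnajb13 (-3.30 ± 0.67, adjusted p = 0.0231) and Cct6b (-1.95 ± 0.43, adjusted p = 0.0267). These genes rise in later stages of the controls, and the free RNA markers of late germ cells moved with them: summed over 7 genes they were at 225 to 386 CPM in early SC of the controls, 226 and 55.3 CPM in NELF-B cKO and 21.0, 91.3 and 97.4 CPM in TDP-43 cKO. Their part in the list was not tested. Of 25 other cytosolic chaperones 4 were lower, beside the same 8.08%, among them Dnajb2 (-1.65) and Dnaja4 (-0.76). Of the 8 TRiC subunits, Cct6a and Tcp1 were lower in TDP-43 cKO (-0.72 and -0.68) and also in NELF-B cKO (-0.84 and -0.64), where 0.825% of all genes were called lower. The controls are shared by both comparisons. None of the 14 mitochondrial and endoplasmic reticulum chaperones was called in either cKO in early SC.

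Later germ stages held fewer cKO mice. In P, 0 members were called in NELF-B cKO (3 at an unadjusted p under 0.05) and 0 in TDP-43 cKO (0 at an unadjusted p under 0.05), by edgeR and by DESeq2, with 0.0352% and 0.00587% of all genes called by edgeR and 1.25% and 0.644% by DESeq2. Hspa2 in P was at 1384 to 1471 CPM in the controls, 1298 and 1557 CPM in NELF-B cKO and 1411 and 1439 CPM in TDP-43 cKO 2 and 3, and the differences were -0.03 ± 0.09 in NELF-B cKO and -0.04 ± 0.09 in TDP-43 cKO (log2, SE). Hspa4l in P, at 511 to 599 CPM, 581 and 471 CPM, and 608 and 627 CPM, overlapped between control and NELF-B cKO, and the TDP-43 cKO mice lay just above the controls. P cells holding Nelfb or Tardbp UMIs were not left out here. Tardbp in P was at 99.7 and 88.9 CPM in TDP-43 cKO 2 and 3 against 91.2 to 127 CPM in the controls, and only 16 of 161 and 10 of 123 P cells of these mice held no Tardbp UMI. The TDP-43 cKO sums in P thus come mostly from cells in which Tardbp RNA was found. In the study's methods the loxP sites of Tardbp flank exon 3 only. Whether a deleted allele still yields UMIs with 3′ counting was not tested, so a Tardbp UMI need not mark a cell with an intact gene. The same limit holds for the cells left out of SG and early SC. In RS of TDP-43 cKO 0 of 9 members were called (1 at an unadjusted p under 0.05, 0 by DESeq2), with 0.0% of all genes called by edgeR and 0.212% by DESeq2.

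Somatic cells of the cKO mice, which carry the null allele but not the germ cell deletion, were compared next. In Sertoli cells Nelfb was at 6.36 and 10.5 CPM in NELF-B cKO against 19.2 to 27.0 CPM in the controls, and Tardbp was at 80.4, 77.8 and 73.7 CPM in TDP-43 cKO against 98.2 to 111 CPM. In Leydig cells Nelfb was at 8.73 and 11.1 CPM in NELF-B cKO against 19.1 to 30.3 CPM, and Tardbp at 63.0, 49.7 and 52.1 CPM in TDP-43 cKO against 60.9 to 86.2 CPM. The cKO and control mice overlapped for Tardbp in Leydig cells and not in the other values. None of the members tested was called by edgeR in Sertoli, Leydig or interstitial cells of either cKO or in myoid cells of TDP-43 cKO. Myoid cells of NELF-B cKO were too few to test. DESeq2 called 3 members in Sertoli, 2 in Leydig, 1 in interstitial and 0 in myoid cells of TDP-43 cKO, beside 18.9%, 9.20%, 6.29% and 0.887% of all genes, and 0 members in NELF-B cKO. The shares of all genes called by edgeR in TDP-43 cKO were 8.97% in Sertoli cells, 0.0% in Leydig cells, 0.00829% in interstitial cells and 0.0% in myoid cells, and in NELF-B cKO 0.0% in Sertoli, Leydig and interstitial cells. At an unadjusted p under 0.05 there were 4, 2, 4 and 5 members in the 4 types of TDP-43 cKO, of 9, 9, 9 and 7 tested. In Sertoli, Leydig and interstitial cells of NELF-B cKO there were 0, 3 and 2. The share of all genes at that threshold was not counted. Hspa2 in Sertoli cells was at 455, 215, 223 and 208 CPM in the controls, 223 and 65.0 CPM in NELF-B cKO and 52.0, 121 and 83.8 CPM in TDP-43 cKO (-1.69 ± 0.47, adjusted p = 0.0522; 0.00242 to 0.662 over 21 alternatives). The 4 mice with the least Hspa2, NELF-B cKO 2 and the 3 TDP-43 cKO mice, were also those with the least late germ RNA in Sertoli cells, at 18.1 to 58.0 CPM against 229 to 530 CPM in the other 5 mice over 7 marker genes. Its part in the Sertoli values was not tested beyond the subtraction of free RNA. Sertoli cells lay in 2 clusters, with medians of 2107 and 34481 UMIs a cell, and the former held 63.3% to 87.6% of them in the controls and 32.2% to 47.2% in TDP-43 cKO. Within it 4 members were lower in TDP-43 cKO, beside 18.1% of all genes called lower: Hspa2 (-2.15 ± 0.52, adjusted p = 0.0193), Hspa4l (-1.29 ± 0.26, adjusted p = 0.0178), Dnajb1 (-1.63 ± 0.41, adjusted p = 0.0205) and Hsp90aa1 (-1.10 ± 0.33, adjusted p = 0.0306). Within the cluster of 34481 UMIs 0 members were called in TDP-43 cKO, beside 1.0% of all genes, and Hspa4l was at -0.30 ± 0.15 (adjusted p = 0.293).

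The difference between the cKO effects in germ and Sertoli cells was tested directly. For TDP-43 cKO, 1 of 10 members was called, Hspa4l, whose effect in SG and early SC was 0.57 ± 0.15 lower on the log2 scale than that in Sertoli cells (adjusted p = 0.0301), beside 11.4% of all genes called and 9.95% called lower. The median over all genes was -0.31, and the Hspa4l value was -0.24 (adjusted p = 0.406) with library totals in place of TMM. Only 6 of 21 alternatives called it (adjusted p 0.0268 to 0.989). It depended on which Sertoli cells were taken: against the cluster of 2107 UMIs alone it turned to 0.47 (adjusted p = 0.266), and against the cluster of 34481 UMIs alone it was -0.80 (adjusted p = 0.0335). Against the former, Hspa2 (0.97), Dnajb1 (0.89) and Hsp90aa1 (1.02) were called in the opposite direction, with effects lower in Sertoli than in germ cells, beside 7.96% of all genes called. In NELF-B cKO Hsp90aa1 (0.77) was called there too, beside 1.01%. With 1 mouse left out, the Hspa4l difference for TDP-43 cKO against all Sertoli cells was called without control 2 or NELF-B cKO 1. It was not called without any of the other 7, and without control 4 it was -0.04 (adjusted p = 0.939). This Hspa4l value turned to 0.17 where the controls, too, lost their cells holding Tardbp UMIs. For NELF-B cKO 0 members were called by edgeR and by DESeq2 (1 at an unadjusted p under 0.05), with 0.134% of all genes called by edgeR and 0.869% by DESeq2.

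Hspa1a and Hspa1b in somatic cells differed more between single mice than between genotypes. In Leydig cells, which make androgens, Hspa1a was at 35.2, 21.7, 27.1 and 607 CPM in controls 1 to 4, at 12.1 and 40.3 CPM in NELF-B cKO and at 209, 42.2 and 18.4 CPM in TDP-43 cKO. Hspa1b was at 17.9, 17.6, 17.0 and 238 CPM, at 6.52 and 18.0 CPM, and at 104, 15.9 and 7.41 CPM. Control 4 and TDP-43 cKO 1 were the high mice for both genes, in Leydig, interstitial and immune cells alike. Interstitial Hspa1a was at 155, 99.2, 174 and 720 CPM in the controls, 71.8 and 114 CPM in NELF-B cKO and 217, 126 and 93.1 CPM in TDP-43 cKO. In immune cells it was at 205, 229, 491 and 1163 CPM, 55.1 and 296 CPM, and 1260, 439 and 169 CPM. With Leydig cells thinned to 2000 UMIs, 20 of 48 cells of control 4 (41.7%, 95% Wilson interval 28.8% to 55.7%) and 25.2% of those of TDP-43 cKO 1 held a UMI of Hspa1a, against 9.25%, 2.47% and 4.00% in controls 1 to 3. P cells of the controls, thinned alike, held one in 0.387% to 0.974%. In SG control 4 did not stand apart, with 12.3 CPM of Hspa1a inside the range of 9.92 to 13.4 CPM of the other controls. On the few UMIs of early SC it was the highest control, at 2.45 CPM of Hspa1a (1.16 to 2.03 CPM in the others) and 1.73 CPM of Hspa1b (0.771 to 1.35 CPM).

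**Figure D5:**
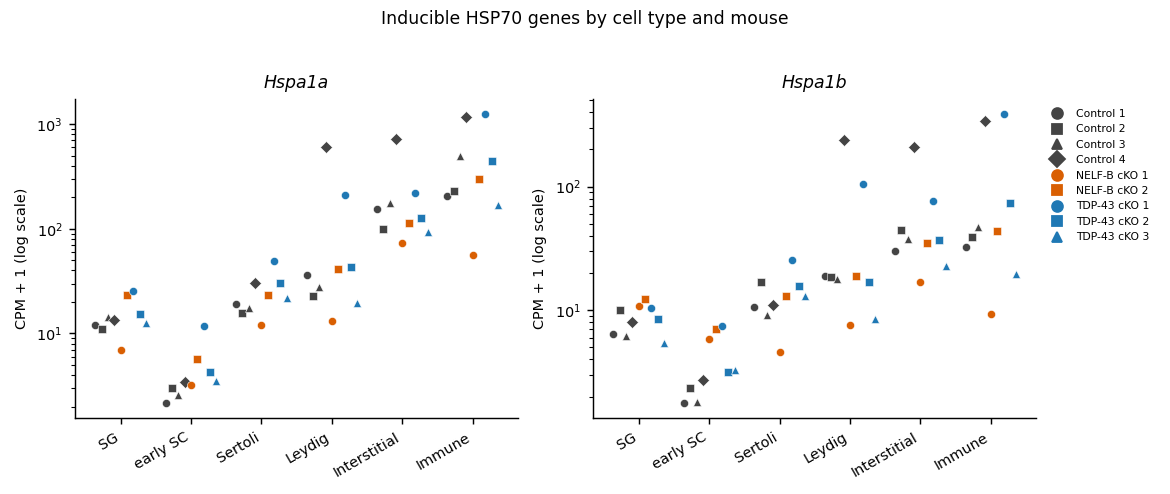
Hspa1a and Hspa1b as CPM + 1 (log axis) in SG, early SC, Sertoli, Leydig, interstitial and immune cells, 1 point per mouse. Control 4 (607 CPM) and TDP-43 cKO 1 (209 CPM) stand above the other mice for Hspa1a in Leydig cells, while in SG all 9 mice lie between 5.99 and 24.3 CPM.

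Hsph1 was also high in control 4. In its Leydig cells it was at 82.5 CPM against 14.5 to 21.8 CPM in the other controls, 4.35-fold their median, beside 22.4-fold for Hspa1a and 13.6-fold for Hspa1b. Dnajb1 (1.23-fold) and Hsp90aa1 (1.21-fold) were only slightly above. In interstitial cells the same 3 genes were 4.63-fold (Hspa1a), 5.75-fold (Hspa1b) and 5.29-fold (Hsph1) higher. Of 12 immediate early genes, control 4 was the highest control for 0 in Leydig and 0 in interstitial cells, beside 28.6% and 24.9% of all genes. Of the 8 members with a mean of at least 20 CPM it was the highest control for 6 and 5. The cause was not tested here.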

How the data were processed

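Whole testes of postnatal day 24 mice were profiled with droplet 3′ single-cell RNA-seq (4 control, 2 NELF-B cKO and 3 TDP-43 cKO mice, 1 library each). The deposited files hold UMI counts per gene and barcode that the authors made with Cell Ranger on the mm10 build; the submitters' processing notes name Cell Ranger 6.1.1 and 7.0.0, Seurat 4.2.0 and DESeq2 1.36, and the file headers name Cell Ranger 4. Nothing in the files was normalized, and all barcodes with a UMI were present, so cells were rebuilt here.

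Barcodes with more than 1000 genes and under 10% mitochondrial UMIs (45132) were clustered with scanpy 1.11.5 and leidenalg 0.10.2 in Python 3.11.15 (3000 genes without the members and chaperone lists, 40 components, 20 neighbours, resolution 0.8, seed 7). Clusters were named from fixed markers, at least 3 of them 2-fold above the other clusters. Clusters with a median under 2000 UMIs were left out, among them clusters of 9714 and 5403 barcodes, the latter 98.6% from control 2. Scrublet marked 92 of 27861 cells (0.330%), too few to count as working, so no doublets were removed. Cells classed as SG or early SC that held UMIs of Nelfb (NELF-B cKO) or Tardbp (TDP-43 cKO) were left out. The study's methods took such cells out of every germ stage, but here P, D and RS were kept whole, because the removal leaves few TDP-43 cKO cells there.

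UMIs were summed per mouse and cell type (at least 20 cells, 2 mice a group) and tested with edgeR 4.0.16 in R 4.3.3 (filterByExpr, TMM, quasi-likelihood F test), with Benjamini-Hochberg adjustment over all genes of the fit and calls at an adjusted p under 0.05. DESeq2 1.42.0 was an alternative. The SE is the log2 fold change divided by the root of the F statistic. Stage contrasts and the comparison with Sertoli cells took the mouse as a block. All genotypes shared 1 estimate of the spread, and p-values measure the spread between single mice. The tests were run on simulated counts first. Intervals on shares of cells are Wilson intervals at 95% and cover counting error only. CPM give the share of a gene in the UMIs of a sum, so fewer cells or less RNA per cell need not change them. A rise, fall or plateau between stages is thus one of share and need not be one of transcripts per cell. The median was 80207 UMIs a cell in the larger P cluster, 31154.5 in D and 2934 in the larger RS cluster.

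The members and gene lists were chosen with earlier results of these data known. All 10 members are named, and of each list up to 4 called genes with the largest change. Genes of like pattern were ranked by Pearson's r of log2(CPM + 1) among genes with a mean of at least 20 CPM. Positions are those of the GENCODE annotation on GRCm38, and promoter windows are RefSeq's. The replicate numbers of the labels did not pair the mice, with deviations of 7 same-numbered pairs correlating at -0.434 to 0.374. Protein sequences were not used here.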

Additional observations from a re-analysis of the deposited data

Results flagged for a closer look

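Among the 4 control mice, the gap test of a single high or low value marked 13 of 90 combinations of member and cell type (14.4%). For independent, normally spread values the test marks about 1 in 20. The 90 combinations share the same 4 mice and hold genes that move together, so the share to expect here was not measured. Control 4 held 7 of the marks, control 1 held 5 and control 2 held 1.

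Control 4 was marked in the interstitial compartment for the stress-inducible members. Its Leydig cells stood at 607.0 CPM of Hspa1a (other controls 21.7 to 35.2), 238.4 CPM of Hspa1b (17.0 to 17.9) and 82.5 CPM of Hsph1 (14.5 to 21.8). Its interstitial cells stood at 719.8 CPM of Hspa1a (99.2 to 174) and 209.8 CPM of Hspa1b (29.1 to 43.6), and its immune cells at 341.4 CPM of Hspa1b (31.6 to 46.4). TDP-43 cKO 1 had the next highest Leydig values, 209 and 104 CPM of Hspa1a and Hspa1b. The cause was not tested.

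Hspa1l was marked at low counts, with 2.73 CPM in Sertoli cells of control 4 (1.07 to 1.22) and 2.96 CPM in SG of control 2 (3.71 to 3.82).

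Control 1 was marked for Hspa2, Hsp90aa1, Hspa4l and Hsph1. Its Sertoli cells had 454.6 CPM of Hspa2 (other controls 208 to 223) and 1570.7 CPM of Hsp90aa1 (975 to 1059), and its interstitial cells 150.6 CPM of Hspa4l (59.6 to 75.0). The summed late germ markers in its Sertoli cells were also the highest, at 530 CPM against 229 to 272 CPM in the other controls. With free RNA subtracted by round spermatid genes, control 1 kept 221 CPM of Hspa2 (other controls 62.2 to 104) in Sertoli cells. It kept 1148 CPM of Hsp90aa1 (687 to 761) there and 86.7 CPM of Hspa4l (13.65 to 49.1) in interstitial cells. The cause of these marks was not tested. In germ cells, control 1 was low for Hspa4l in P, at 511.1 CPM (592 to 599), and for Hsph1 in early SC, at 43.2 CPM (60.6 to 63.6).

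The TDP-43 cKO effect on Hspa4l differed between SG and early SC and Sertoli cells by -0.57 ± 0.15 (log2, SE; adjusted p = 0.0301; 0.0268 to 0.989 over 21 alternatives, 6 of which called it).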

How the results depend on the processing

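Of 4357 values for single members under an alternative, 94.7% kept their side of the threshold, 138 became called, 79 lost a call and 15 changed sign where the value was called under the reported or the other setting; the causes were not tested. A further 295 changed sign without being called under either, 263 of them with a reported value within 0.5 of 0. Calls between stages in control mice numbered 33, and 26 to 39 under the alternatives other than an adjusted p under 0.01 with a log2 fold change of at least 1, which left 17; without 1 mouse they ran from 30 to 34. For the cKO comparisons the counts are given in the order NELF-B and TDP-43 in SG and early SC, single germ stages, somatic types, and germ against Sertoli effect. They were 0, 0, 2, 0 and 1 as reported and 1, 4, 8, 6 and 0 with DESeq2; the stricter threshold left 0 in all. No filter on low counts gave 1 for TDP-43 in SG and early SC, 4 in single stages and 15 in somatic types. Fitting only the mice of a contrast gave 4, 8 and 7 for these, and thinning to 2000 UMIs gave 2, 1 and 7. Leaving the cells that hold UMIs of the targeted gene out of the controls too gave 1 for NELF-B, 0 in single stages and 0 for the germ against Sertoli effect. Free RNA subtraction gave 8 in single stages. The germ against Sertoli call was 0 with free RNA subtracted, library totals, no cell left out, or without control 4 and TDP-43 cKO 1. The last also gave 0 in single stages and 1 in somatic types, and removal of Scrublet calls gave 1 there. The zygotene cluster alone gave 1 (NELF-B) and 2 (TDP-43), and the preleptotene and leptotene cluster 2 (NELF-B). A single Sertoli cluster in place of all Sertoli cells, chosen after seeing the data, gave 4 in somatic types and 4 for the germ against Sertoli effect (the cluster of 2107 UMIs), or 0 and 1 (that of 34481). Without 1 mouse the counts ran from 0 to 0 (NELF-B), 0 to 4 (TDP-43; 4 without either NELF-B cKO mouse), 1 to 8 (single stages; 8 without NELF-B cKO 2), 0 to 7 (somatic; 7 without either NELF-B cKO mouse) and 0 to 1 (germ against Sertoli). The replicate numbers did not pair the mice; with the replicate block 0 members were called in SG and early SC, the single germ stages and the somatic types other than myoid cells, which could not be fitted, and the germ against Sertoli effect has the mouse as its block, and without the mouse block the stage calls stayed at 33.

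The 15 called results that changed sign were, on the log2 scale, Hspa4l D against P (0.23) and Hspa8 Sertoli against SG (0.012) with DESeq2; Hspa8 RS against D with low-UMI clusters kept (-0.64); Hsp90aa1 in NELF-B cKO in the preleptotene and leptotene cluster (0.67); and the Hspa4l germ against Sertoli effect with those cells left out of the controls (0.17) or without control 4 and TDP-43 cKO 1 (0.054) or with the Sertoli cluster of 2107 UMIs alone (0.47), which also turned that of Dnajb1 (0.89). Subtracting free RNA by somatic genes turned Hspa2 in SG (11.56 in NELF-B and 10.30 in TDP-43 cKO), Dnajb1 in SG (11.56, TDP-43) and Dnajb1 in early SC (1.14 and 0.72). It left 0 UMIs of both genes in SG of every control, so these values are no bound. Subtraction by round spermatid genes in SG and by late germ genes in Sertoli cells turned Hspa2 (-0.16) and Dnajb1 (-0.54) in Sertoli against SG. The cKO groups held 2 and 3 mice, and Hspa1a, Hspa1b and Hspa1l in spermatocytes rest on few UMIs.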

Other observations

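In Sertoli cells of TDP-43 cKO against control, Hspb8 (3.92 ± 0.75, log2, SE; adjusted p = 0.0439) and Cryab (3.14 ± 0.79, adjusted p = 0.0461), small heat shock proteins that hold unfolded proteins, were higher, and Hspb9 (-4.29 ± 1.16, adjusted p = 0.0495), a small heat shock protein of spermatocytes, was lower, beside 8.97% of all genes called. Late germ RNA in Sertoli cells, summed over 7 marker genes, was also low in these mice, at 18.1 to 58.0 CPM in NELF-B cKO 2 and the TDP-43 cKO mice against 229 to 530 CPM in the other 5, and its part was not tested. Of 12 immediate early genes 3 were higher there, led by Atf3 (2.19 ± 0.47, adjusted p = 0.0439). The summed level of the 12 genes in Sertoli cells was 1529 to 2088 CPM in the controls, 1239 and 4005 CPM in NELF-B cKO 1 and 2, and 3739, 3623 and 3445 CPM in TDP-43 cKO 1 to 3, so NELF-B cKO 2 again lay with the TDP-43 cKO mice. The makeup of Sertoli cells differed from the controls in TDP-43 cKO but not in NELF-B cKO 2. In the larger Sertoli cluster lay 63.3% to 87.6% in the controls, 77.8% and 67.9% in NELF-B cKO, and 32.2%, 47.2% and 32.9% in TDP-43 cKO.

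In Leydig cells of control 4 the chaperones outside the 10 members moved less than Hspa1a, and in both directions. The small heat shock protein Hspb1, at 47.7 CPM against 9.71 to 17.3 CPM, was 3.52-fold the median of the other controls. Bag3 was 1.82-fold, Chordc1 1.62-fold and Cdc37 1.45-fold. Hspb9 (0.534-fold), Shcbp1l (0.540-fold) and Dnajb3 (0.578-fold) were lower. Control 4 was the highest control for 11 of 23 other cytosolic chaperones and 2 of 4 small heat shock proteins. It was highest for 0 of 5 testis chaperones, 3 of 8 TRiC subunits and 1 of 14 mitochondrial and endoplasmic reticulum chaperones, beside 28.6% of all genes. In its interstitial cells Hspb1 was 0.985-fold and Bag3 1.01-fold. The cause was not tested.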
